A study of Mus musculus with 4 samples.

Results

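The enzymes that build and desaturate fatty acids were followed in the cerebellum of mice that lack Derlin-2 in the nervous system. They are 10 genes, Fasn, Acaca, Acly, Acss2, Scd1, Scd2, Elovl6, Fads1, Fads2 and Me1, out of 22911 genes named on the array, and they were chosen as the SREBP-1 side of lipid synthesis, not by their measured values. Earlier results of these data were known when the genes were chosen. The cerebellum was taken at postnatal day 28, and its total RNA was hybridised to 4 Agilent arrays with 1 dye, 2 of them for control and 2 for knockout (KO) samples. The control samples came from C57BL/6 mice with the genotype Derlin-2 flox/flox. For the KO samples this line had been crossed with mice whose Cre recombinase is driven by the promoter of nestin. That promoter works mainly in precursors of neurons and glia. Which cells of the cerebellum kept an intact gene was not measured here. Whether control mice carried Cre is not stated in the sources used here, but a flox/flox mouse with nestin Cre would itself be a knockout. Cre and the loss of Derl2 therefore go together in these groups, and their effects cannot be told apart. The labels do not say that the samples of a group came from separate animals, so p-values measure only the spread between these samples, which may be technical.

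Palmitate is made from acetyl-CoA in the cytosol. Acly cuts citrate to acetyl-CoA, Acss2 makes it from acetate, Acaca carboxylates it to malonyl-CoA, and Fasn joins these units with NADPH, part of which comes from Me1. Elovl6 lengthens palmitate, Scd1 and Scd2 place the first double bond of monounsaturated fatty acids, and Fads2 and Fads1 desaturate polyunsaturated ones. Genes of this pathway are activated by SREBP-1, a transcription factor that is held in the membrane of the endoplasmic reticulum (ER) until it is carried to the Golgi and cleaved. In the brain much of this lipid goes into myelin, the sheath made by oligodendrocytes, and Derlin-2 is itself an ER membrane protein that takes part in the removal of misfolded proteins.

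The comparison asked whether transcripts of these enzymes differ in the cerebellum without Derlin-2. None of the 10 genes passed the threshold, a Benjamini-Hochberg adjusted p under 0.05 from limma over all 37516 probes tested, and their adjusted p lay between 0.502 and 0.949. No probe of any gene passed it (0 of 37516), so this threshold does not set the enzymes apart from other genes. In KO the signal of the brightest probe of each gene was between 88.8% and 106% of control. All 10 limma 95% intervals of the difference lay within a 1.5-fold change in either direction. For 5 genes the KO mean was above the control mean and for 5 below it. The differences of the 10 genes ran from −0.17 (Me1) to 0.09 (Scd1) on the log2 scale, with a median of −0.01.

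Values are log2 signals relative to the 75th percentile of the same array, and levels are not compared between probes. Of the 18 probes of the 10 genes, all 18 passed the filter on dim probes, and 17 were well above background on all 4 arrays. The group label was checked on Derl2 itself, whose brighter probe read 2.13 and 2.20 in control and 0.81 and 0.70 in KO. The Derl2 difference was −1.41 on this probe, yet with a limma adjusted p of 0.273 it did not pass the threshold either. Of all spots, 66.4% to 69.4% were well above background per array, and no spot reached saturation (0 of each array). The 4 arrays share 1 slide, where control and KO samples occupy different positions, so position and group cannot be told apart. Markers of granule cells (5 of 5) and of Purkinje cells (4 of 4) were well above background on all 4 arrays, as the label cerebellum has it. Of the markers of adipocytes, which make fatty acids with the same enzymes, 4 of 5 (Adipoq, Plin1, Cfd and Cidec) did not pass the filter. With 2 arrays a group, their number sets the precision.

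The start regions of 7 of the 10 genes, from 250 bases before to 50 after the start of transcription, are in the RefSeq promoter table of GRCm38.p6, in 8 windows. They were searched on both strands because SREBP-1 binds its targets beside NF-Y, the factor of the CCAAT box, and Sp1, the factor of the GC box. The core of the sterol regulatory element (TCACNCCAC) was in 0 of the 8 windows and in 1.24% of all 32851 windows of the table, and the E-box CACGTG was in 0 and in 7.15%. CCAAT was in 4 windows, of Fasn, Acss2, Acly and Me1, and in 37.4% of all windows. GGGCGG was in 4 windows, of Acss2, Acly, Fads2 and Me1, and in 35.7% of all. A match is a description of letters, and a window without one says nothing of the factor. The stretches around the CCAAT boxes that lie before a start are shown to let the genes be compared at this element, with CCAAT or its complement ATTGG in capitals; in Fasn the last match on each strand overlap. The sequences are on the strand of the gene and are taken from RefSeq, build GRCm38.p6: Fasn from chr11:120824582-120824657 (minus strand), Acss2 from chr2:155517950-155517994 (plus strand) and Me1, at the second of its starts, from chr9:86687461-86687505 (minus strand).
Fasn: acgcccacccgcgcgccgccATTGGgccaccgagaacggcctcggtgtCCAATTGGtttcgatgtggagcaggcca
Acss2: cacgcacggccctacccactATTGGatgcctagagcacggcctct
Me1: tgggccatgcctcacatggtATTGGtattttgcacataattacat

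**Figure D1:**
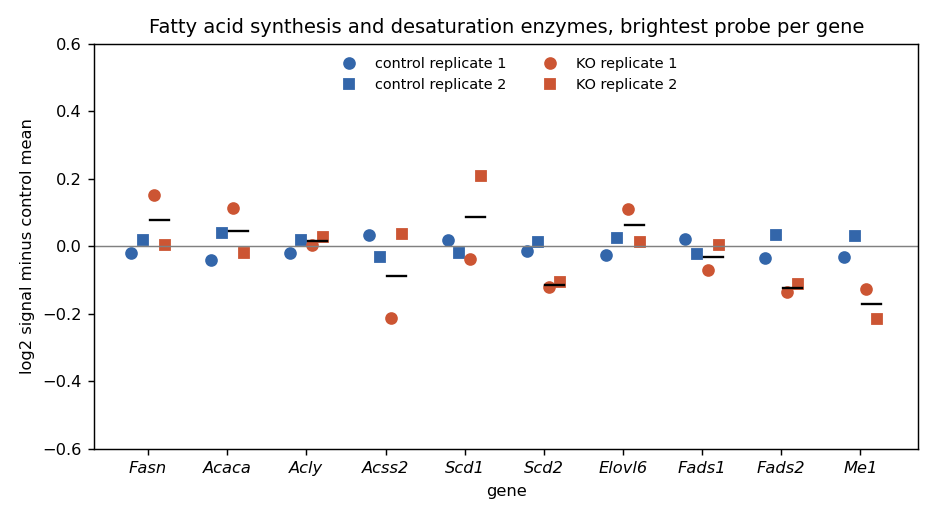
Log2 signal of the brightest probe of each of the 10 genes, minus the mean of the 2 control arrays, for each of the 4 arrays (circles replicate 1, squares replicate 2; blue control, red KO; the black bar is the KO mean). Both KO points lie below both control points for Scd2, Fads2 and Me1, and for the other 7 genes the groups overlap.

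The supply of acetyl-CoA was read on Acly and Acss2. Acly, the citrate lyase, had a log2 signal of 4.48 and 4.51 in control and 4.50 and 4.52 in KO. The 4 arrays were nearly level and the groups overlapped. The log2 difference, KO minus control, was 0.02 (SE 0.10; limma adjusted p 0.949), so KO was 101% of control, with a 95% interval of 84.3% to 121%. Acss2, the acetyl-CoA synthetase of cytosol and nucleus, read 2.40 and 2.33 in control and 2.15 and 2.40 in KO. KO replicate 1 was the lowest array and KO replicate 2 as high as the higher control, so the groups overlapped. Its difference was −0.09 (SE 0.13; limma adjusted p 0.778), or 94.1% of control (73.8% to 120.0%). On the dimmer Acss2 probe, A_55_P1988795, both KO arrays (−1.32 and −1.31) lay below both controls (−1.07 and −1.24), with a difference of −0.16 (SE 0.11).

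The synthesis steps proper are those of Acaca and Fasn. Acaca, acetyl-CoA carboxylase of the cytosol, read 3.14 and 3.22 in control and 3.29 and 3.16 in KO on its brightest probe. KO replicate 1 was the highest array and KO replicate 2 lay between the controls. The difference was 0.05 (SE 0.11; limma adjusted p 0.864), or 103% of control (84.2% to 127%). Fasn, the multi-enzyme that completes palmitate, read 5.80 and 5.84 in control and 5.97 and 5.82 in KO. Here too KO replicate 1 was the highest array and KO replicate 2 lay between the controls. The Fasn difference was 0.08 (SE 0.11; limma adjusted p 0.764), or 106% of control (86.0% to 129.6%). Me1, the cytosolic malic enzyme that supplies NADPH, had the largest difference of the 10 genes. It read 3.32 and 3.38 in control and 3.22 and 3.13 in KO, so both KO arrays lay below both controls. The difference was −0.17 (SE 0.10; limma adjusted p 0.502), or 88.8% of control (73.2% to 107.7%). The other Me1 probe, A_55_P2016842, gave the same order of groups, with 1.14 and 1.16 in control and 0.94 and 0.88 in KO, and a difference of −0.24 (SE 0.10; limma adjusted p 0.384).

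Elongation was read on Elovl6, which had a log2 signal of 2.68 and 2.73 in control and 2.82 and 2.72 in KO. KO replicate 1 was the highest array and KO replicate 2 lay between the controls, as for Acaca and Fasn. The Elovl6 difference was 0.06 (SE 0.10; limma adjusted p 0.798), or 104% of control (86.1% to 127%).

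Stearoyl-CoA desaturase was read on Scd1 and Scd2, which lie on chromosome 19 with Scd4 as the one coding gene between them in the RefSeq gene table. Scd2, the form that predominates in brain, read 6.75 and 6.77 in control and 6.64 and 6.65 in KO. The replicates of each group were close, with an SD of 0.0176 in control and 0.010 in KO (n = 2 each), and both KO arrays were lower. The difference was −0.11 (SE 0.10; limma adjusted p 0.617), or 92.4% of control (77.1% to 110.8%). The SE exceeds what these replicates alone would give because limma draws the variance of a probe towards that of all probes. Scd1, better known from liver and adipose tissue, read 2.51 and 2.47 in control and 2.45 and 2.70 in KO. KO replicate 1 was the lowest and KO replicate 2 the highest array. Its difference was 0.09 (SE 0.13; limma adjusted p 0.775), or 106% of control (83.6% to 134.9%). Whether the probes tell these related genes apart was not tested.

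The desaturases of polyunsaturated fatty acids, Fads1 and Fads2, are neighbours on chromosome 19. Fads2, which acts before Fads1 in the pathway, read −0.25 and −0.18 in control and −0.35 and −0.33 in KO. Both KO arrays lay below both controls, with a difference of −0.12 (SE 0.10; limma adjusted p 0.601), or 91.9% of control (76.3% to 110.7%). A dimmer Fads2 probe, A_66_P130115, also had both KO arrays (−3.54 and −3.69) below both controls (−3.18 and −3.50). Fads1 read 1.76 and 1.72 in control and 1.67 and 1.75 in KO on its brightest probe, and the groups overlapped. The difference was −0.03 (SE 0.10; limma adjusted p 0.897), or 97.8% of control (81.0% to 118%).

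The 2 probes of Fads1 disagreed. The dimmer one, A_55_P2897923, read −3.75 and −3.79 in control and −3.49 and −3.41 in KO, so both KO arrays were higher. Its difference was 0.32 (SE 0.10; 95% interval 0.04 to 0.59), and it was the 1 probe of the 18 with an unadjusted p under 0.05 (0.032; limma adjusted p 0.327). Over all 37516 probes 14.0% had such a p, 8.84% with a higher and 5.20% with a lower signal in KO. With normexp background correction, which adds an offset to dim signals, the difference of this probe was 0.12.

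**Figure D2:**
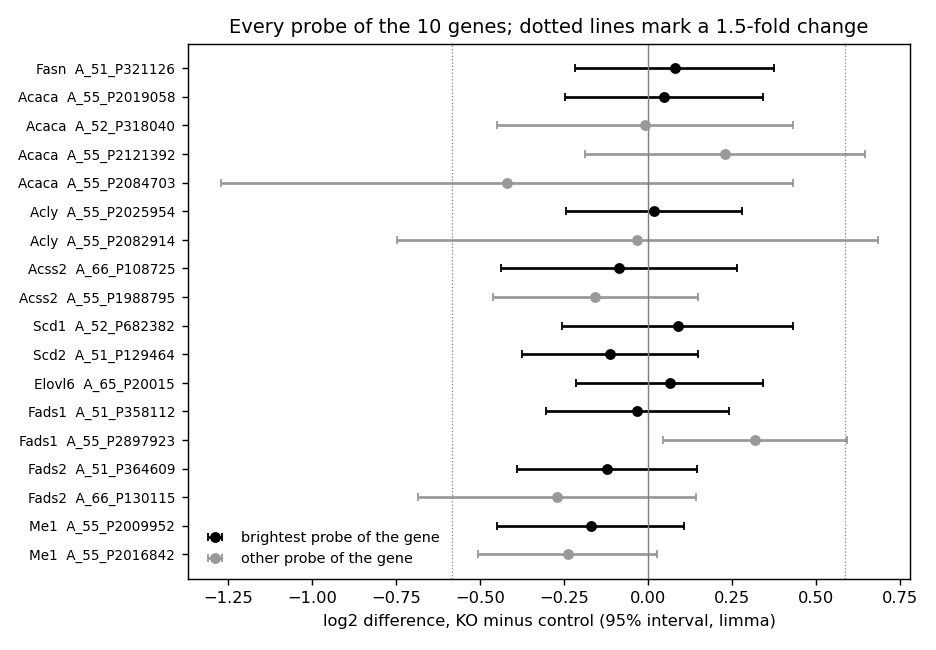
Log2 difference, KO minus control, of every probe of the 10 genes with its limma 95% interval (n = 2 arrays per group; black, brightest probe of the gene; grey, other probes). All 10 black intervals cross 0 and stay inside the dotted lines of a 1.5-fold change, and the dimmer Fads1 probe is the only one of the 18 whose interval does not cross 0.

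The dimmer probes had the higher median SE. It was 0.15 over the 8 dimmer probes and 0.10 over the 10 brightest, although the dimmer probes of Me1 and Acss2 had a smaller SE than the brighter ones. The widest interval belonged to an Acaca probe, A_55_P2084703, at −5.25 and −5.13 in control and −5.17 and −6.05 in KO, where KO replicate 2 stood apart from the other 3 arrays. Its difference was −0.42 (SE 0.32; limma adjusted p 0.575), and it was well above background on 3 of the 4 arrays. The other 2 dimmer Acaca probes had differences of −0.01 and 0.23, and the dimmer Acly probe −0.03, all with overlapping groups. Of the 8 dimmer probes, 3 had both KO arrays below both controls (Acss2, Fads2, Me1) and 1 had both above (Fads1), beside 26.9% of all probes with both below and 22.5% with both above, 49.3% in all.

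Set among all genes, the 10 enzymes were not at the edges. Of 16524 named genes tested by their brightest probe, 45.9% had groups that did not overlap, 13.8% with both KO arrays higher and 32.1% with both lower. Of the 10 enzymes, 0 had both KO arrays above both controls and 3 (Me1, Fads2 and Scd2) had both below, a share near that of all genes. These counts rest on the scaling, while of the 10 signs Fads1 alone turned with quantile normalization or spike-in scaling. After quantile normalization 3 of the 10 had KO higher and 3 lower, and after scaling to spike-in probes 6 had KO higher and 0 lower, while the median of the 10 was 0.05 and 0.08 in place of −0.01. Of all genes, 18.4% then had KO higher and 25.0% lower with quantile normalization, and 25.05% higher and 16.9% lower with spike-in scaling. The median absolute difference was 0.083 for the 10 enzymes and 0.136 for all genes, and 39.4% of all genes differed by more than Me1, the enzyme that differed most.

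Each KO array was also set against each control over the enzymes. The median difference of the 10 genes was −0.07 for KO replicate 1 against control replicate 1 and −0.03 against control replicate 2. For KO replicate 2 it was 0.01 and −0.01. These medians are small beside the median SE of the 10 genes, 0.10. Without KO replicate 2, 6 of the 10 had KO below both controls and 3 had KO above both, and without KO replicate 1 these numbers were 3 and 3; with a single KO array, 49.3% of all genes lie below both controls in either case, and 27.5% and 27.6% above.

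**Figure D3:**
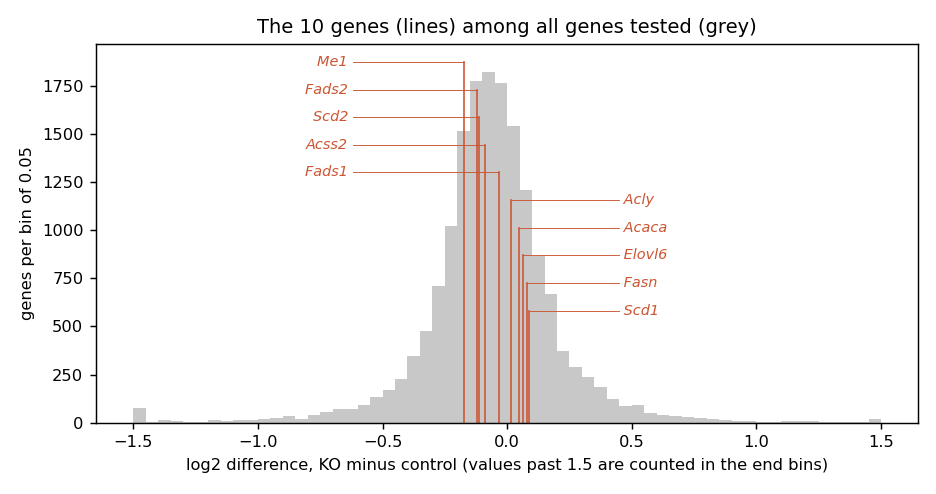
Number of named genes, by brightest probe, in bins of 0.05 of the log2 difference, KO minus control (grey, 16524 genes; differences past 1.5 are counted in the end bins), with the 10 enzymes as red lines whose heights carry no value. The enzymes lie between −0.17 (Me1) and 0.09 (Scd1), inside the bulk of the distribution.

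Of 8 lists of genes around the 10 enzymes, 94 of 96 genes were tested and 0 passed the adjusted threshold of limma. At an unadjusted p under 0.05 there were 0 higher and 2 lower, Elovl5 and Gpat3, against 3.16% higher and 5.65% lower, together 8.81%, of all genes. In both KO arrays 2 of the 94 were higher and 46 lower than both controls, beside 13.8% higher and 32.1% lower of all genes, and the median difference was −0.13, beside −0.06 for all 16524 genes. With quantile normalization 6 were higher and 36 lower (median −0.08), and with spike-in scaling 9 were higher and 28 lower (median −0.04), beside 25.05% higher and 16.9% lower of all genes. From each list the 3 genes with the smallest p are named, each with the SE of its difference and, as a range, its lowest and highest value over 15 alternatives in scaling, filtering, model or arrays left out. The counts of each list under the main scaling, higher and lower in both KO arrays, stand against the same 13.8% and 32.1% of all genes. Counts with quantile normalization stand against 18.4% higher and 25.0% lower of all genes, and counts with spike-in scaling against 25.05% and 16.9%.

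Among the regulators 1 of 16 was higher and 6 were lower in both KO arrays, shares near those of all genes, and with spike-in scaling 1 was higher and 3 lower. Srebf1, which encodes SREBP-1, read 2.90 and 2.81 in control and 2.95 and 2.38 in KO. KO replicate 1 was the highest and KO replicate 2 the lowest array. The Srebf1 difference was −0.19 (SE 0.22; limma adjusted p 0.706), and it was 0.09 without KO replicate 2 and −0.47 without KO replicate 1. Mlxipl, which encodes the carbohydrate-responsive factor ChREBP, read 1.94 and 1.88 in control and 2.07 and 1.98 in KO, a difference of 0.11 (SE 0.10; range 0.06 to 0.19). The liver X receptors, which activate Srebf1, had differences of −0.08 (Nr1h2) and −0.03 (Nr1h3); both turned positive with spike-in scaling, and Nr1h3 also without KO replicate 1 (0.07). Insig1, which retains SREBP in the ER, had a difference of −0.10 (SE 0.11; range −0.18 to −0.01), and Scap, which escorts it to the Golgi, −0.14 (SE 0.12; range −0.24 to −0.05). Thrsp, a lipogenic gene named for its response to thyroid hormone, had the smallest p of this list, at 3.66 and 3.77 in control and 3.12 and 3.52 in KO. Its difference was −0.40 (SE 0.17; limma adjusted p 0.396), −0.19 without KO replicate 1 and −0.60 without KO replicate 2, and its other probe gave −0.32. Usf2, an E-box factor of the Fasn promoter, had −0.15 (SE 0.10, range −0.21 to −0.07). Second probes gave −0.09 for Usf2, −0.12 for Nr1h2, −0.13 for Nr1h3 and 0.27, with overlapping groups, for Mlxipl.

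Among the other elongation enzymes 6 of 11 were lower and 0 higher in both KO arrays, with a list median of −0.22. With quantile normalization 4 were lower and 0 higher (median −0.16), and with spike-in scaling 5 lower and 1 higher (median −0.14). Elovl5, which lengthens the products of Fads2, read 3.01 and 2.94 in control and 2.60 and 2.62 in KO. The difference was −0.36 (SE 0.10; limma adjusted p 0.299; range −0.40 to −0.27), and a dim second probe gave −0.38. Hsd17b12, the ketoacyl reductase of the same cycle, had −0.28 (SE 0.11; range −0.34 to −0.19) and Hacd4, a dehydratase, −0.44 (SE 0.17; range −0.66 to −0.23). A second Hacd4 probe gave −0.22.

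Among the other desaturases and their electron donors 4 of 9 were lower and 1 higher in both KO arrays, with a list median of −0.11; with spike-in scaling 2 were lower and 1 higher (median −0.03). The higher one was Scd3, a close relative of Scd1, with a difference of 0.36 (SE 0.15; limma adjusted p 0.391; range 0.22 to 0.50) on its brightest probe. Its other 3 probes gave −0.12, −0.16 and −0.18, so the probes disagreed, and this gene is uncertain. Degs1, the desaturase of ceramide synthesis, had −0.21 (SE 0.10; range −0.23 to −0.12), and Fads6 −0.23 (SE 0.11; range −0.27 to −0.14).

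Upstream, the genes of carbon and NADPH supply had 7 of 12 lower and 0 higher in both KO arrays, with a median of −0.11; with spike-in scaling 5 were lower and 1 higher, with a median of −0.02. Slc25a1, the carrier that exports citrate from mitochondria for Acly, read 1.68 and 1.47 in control and 1.18 and 1.38 in KO. Its difference was −0.29 (SE 0.14, limma adjusted p 0.422, range −0.40 to −0.19), and its second probe gave −0.28. Acss1, the mitochondrial acetyl-CoA synthetase, had −0.33 (SE 0.15), with −0.16 without KO replicate 1 and −0.50 without KO replicate 2. Slc25a10, the dicarboxylate carrier, had −0.44 (SE 0.20), with −0.22 without control replicate 1, −0.66 without control replicate 2, and −0.14 and overlapping groups with normexp. Mitochondrial fatty acid synthesis had 1 of 7 lower (Ndufab1, −0.24, SE 0.13, range −0.33 to −0.14) and 0 higher, and with spike-in scaling 0 lower and 1 higher. Oxsm, the ketoacyl synthase of that pathway, had 0.18 (SE 0.15), with 0.02 without control replicate 1 and 0.35 without control replicate 2. A dim second Oxsm probe gave −0.12. Mcat, the malonyl transferase of the same pathway, had −0.12 (SE 0.12), with −0.01 without KO replicate 1 and −0.23 without KO replicate 2. This Mcat probe dropped out when spots on patches of raised background were left out, and a second Mcat probe gave −0.05.

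Downstream, the list for activation and binding of fatty acids had 11 of 13 genes lower and 0 higher in both KO arrays, with a median of −0.22. With quantile normalization 9 were lower (median −0.18), beside 25.0% of all genes, and with spike-in scaling 7 (median −0.13), beside 16.9% of all genes. Fabp3, a fatty acid binding protein, read 4.45 and 4.50 in control and 4.25 and 4.06 in KO, a difference of −0.32 (SE 0.12; limma adjusted p 0.357; range −0.41 to −0.22), and its second probe also gave −0.32. Acsl1, which activates long-chain fatty acids, had −0.27 (SE 0.12; range −0.37 to −0.17), and Acot7, an acyl-CoA thioesterase abundant in neurons, −0.26 (SE 0.12; range −0.36 to −0.16). Second probes gave −0.09 for Acsl1 and −0.32 for Acot7.

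Fatty acid oxidation had 8 of 13 lower and 0 higher, with a median of −0.18, and with spike-in scaling 5 lower and 1 higher, with a median of −0.09. The genes with the smallest p were Cpt1a, the carnitine transferase at the entry to mitochondria (−0.29, SE 0.11, range −0.35 to −0.21), Hadhb, a subunit of the trifunctional protein (−0.26, SE 0.12, range −0.35 to −0.15), and Acadl, a long-chain acyl-CoA dehydrogenase (−0.18, SE 0.10, range −0.22 to −0.09). A second Hadhb probe gave −0.22. Glycerolipid assembly had 3 of 13 lower and 0 higher, with a median of −0.01. With spike-in scaling it had 1 lower and 3 higher, with a median of 0.08. In that list Gpat3, an acyltransferase of triglyceride synthesis, had −0.35 (SE 0.11; limma adjusted p 0.325; range −0.41 to −0.27). Agpat2 had −0.27 (SE 0.18), with overlapping groups, −0.49 without control replicate 1 and −0.06 without control replicate 2. Dim second probes gave −0.45 for Agpat2 and −0.21 for Gpat3, each with both KO arrays below both controls. Agpat3 had −0.24 (SE 0.16), with −0.06 without KO replicate 1, −0.41 without KO replicate 2 and overlapping groups under quantile normalization and spike-in scaling, and a second Agpat3 probe gave 0.01.

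**Figure D4:**
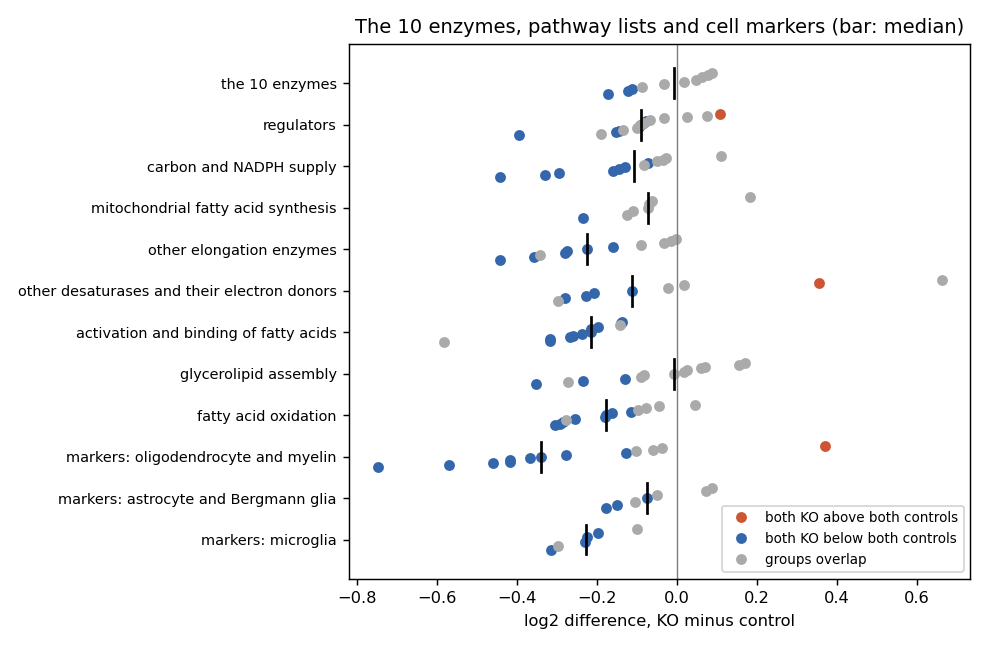
Log2 difference, KO minus control, of each gene by its brightest probe (n = 2 arrays per group), for the 10 enzymes, the 8 pathway lists and markers of oligodendrocytes, astrocytes and microglia; colour marks whether both KO arrays lie above or below both controls, and the black bar is the median. The median of the 10 enzymes, −0.01, is near 0, while those of fatty acid activation (−0.22), other elongation enzymes (−0.22) and myelin markers (−0.34) lie lower.

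Most oligodendrocyte and myelin markers read lower in KO, though 0 of 13 passed the adjusted threshold of limma. Of the 13, all well above background on all 4 arrays, 9 were lower and 1 (Ermn) higher in both KO arrays, beside 32.1% lower and 13.8% higher of all genes, and the median difference was −0.34. The mean log2 level of the list was 4.002 and 3.81 in control and 3.50 and 3.77 in KO, so KO replicate 1 was the lowest array. The list median was −0.17 without KO replicate 1, −0.22 without control replicate 1 and −0.50 without KO replicate 2. Astrocyte and Bergmann glia markers had a median of −0.08, with 3 of 7 lower, and microglia markers −0.23, with 4 of 6 lower. With spike-in scaling 1 astrocyte marker was lower and 1 higher (median 0.01), and 2 microglia markers were lower (median −0.14). The myelin markers then had 9 lower and 1 higher (median −0.25), beside 16.9% lower and 25.05% higher of all genes. The microglia median was −0.11 without KO replicate 1 and −0.28 without KO replicate 2. Granule cell markers had a median of −0.05, with 2 of 5 lower and 0 higher. Purkinje cell markers had a median of −0.06, with 2 of 4 lower and 1 higher, and differences from −1.16 to 0.06. Their mean log2 level was 6.28 and 6.08 in control and 5.54 and 6.21 in KO, so KO replicate 1 was the lowest array. Choroid plexus markers were high on control replicate 2 alone, with a mean log2 level of 2.95 there and −0.96, −0.83 and −1.39 on the other arrays. The part of these cells in the values of the enzymes and of the pathway lists was not tested. In such bulk samples fewer cells of a type and less RNA per cell cannot be told apart. Without control replicate 2, 4 of the 10 enzymes were lower than the remaining control in both KO arrays and 4 were higher, beside 44.6% lower and 24.8% higher of all genes, and the median of the 10 was −0.01.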

How the data were processed

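Total RNA (150 ng per sample, per the labels' protocols) was labelled with Cy3 and hybridised to Agilent arrays. The deposited scanner files give the intensity of each spot, background-corrected by the authors' Feature Extraction software, version 12.1.1.1 per the file headers and 10.7.1.1 per the submitters' processing notes. The deposited value table holds log2 values by the authors whose centring is unknown (column medians 0.00706, −0.194, −0.160 and −0.222), and its differences between arrays equal those of the scanner files within 0.01 for 100% of 35502 probes, so it served as an alternative. Control and outlier-flagged spots were left out, spots of a probe were averaged, and log2 of the processed intensity minus the 75th percentile of the array was used. A probe was kept where both arrays of a group, control or KO, had it well above background. Genes were named through RefSeq accessions, which matched for 32994 of 35886 such probes (91.9%). KO and control were compared with limma 3.58.1 in R 4.3.3 (lmFit, eBayes), with Benjamini-Hochberg adjustment over all 37516 probes. The procedure was also run on simulated data with changes far larger than those of the enzymes, so that run says nothing of changes this small. An exact permutation test of 2 against 2 arrays cannot go below p = 0.333. A gene is represented by its brightest kept probe. The text names all 10 enzymes, the 3 genes with the smallest p of each pathway list, and 5 regulators fixed by name. The enzymes, the lists and the alternatives were chosen with earlier results of these data known. The alternatives were other scalings, normexp, other filters, spots on patches of raised background left out, another variance model, the replicate block, the mean of a gene's probes, and each array left out.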

Additional observations from a re-analysis of the deposited data

How the results depend on the processing

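No enzyme passed the threshold under any of the 15 alternatives with a test; the mean of a gene's probes, the other of the 16 alternatives, had none. The lowest limma adjusted p was 0.361, and 150 of 160 gene values kept their direction. Part of this count was fixed in advance. The filters on dim probes, the other variance model and the replicate block leave these differences unchanged. No enzyme probe had a flagged or patch spot, so the alternatives on such spots could only shift the scaling. Me1 (−0.22 to −0.09), Fads2 (−0.20 to −0.04), Scd2 (−0.14 to −0.03), Fasn (0.00 to 0.17) and Elovl6 (0.01 to 0.15) kept their direction throughout. All 10 brightest probes were well above background on all 4 arrays; the dimmer probes had a higher median SE (0.15 against 0.10). The causes of the changes below were not tested. Over all genes, 0 probes passed the adjusted threshold; the number was 1 with quantile normalization, with the median of well-detected probes, with spike-in scaling and without patch spots, 2 with normexp, 4 with an intensity trend and robust variances, and 0 to 98 on leaving out each array, 98 without control replicate 2. A group left with 1 array takes its spread from the other group. The number of enzymes higher in KO with separate groups was 0, and it was 3 with quantile normalization, 6 with spike-in scaling, 2 with normexp, 1 with the mean of all probes and 0 to 4 on leaving out each array. The number lower was 3, and it was 0 with spike-in scaling, 4 with normexp and 3 to 6 on leaving out each array. The median of the 10, −0.01, was 0.049 with quantile normalization, 0.078 with spike-in scaling, −0.024 with the mean of all probes and −0.053 to 0.0042 on leaving out each array.

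The sign of the log2 difference turned for 5 enzymes. Fads1 was 0.017 with quantile normalization, 0.053 with spike-in scaling and 0.14 with the mean of all probes; with the mean of all probes Acaca was −0.039 and Acly −0.0079. On leaving out each array the values ran from −0.070 to 0.0048 for Fads1, −0.020 to 0.11 for Acaca, −0.0021 to 0.035 for Acly, −0.21 to 0.037 for Acss2 and −0.036 to 0.21 for Scd1, and the sign turned without KO replicate 1 (Fads1, Acaca, Acss2), KO replicate 2 (Scd1) or control replicate 1 (Acly). Among dimmer probes the Acly probe A_55_P2082914 was 0.0073 with normexp, 0.054 with spike-in scaling and −0.33 to 0.26 on leaving out each array. The Acaca probe A_52_P318040 was 0.076 with spike-in scaling and −0.20 to 0.18 on leaving out each array, and A_55_P2084703 ran from −0.86 to 0.019, with the positive value without KO replicate 2.

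The replicate numbers of the titles were not taken as pairs, since there are only 2 and the labels tie them to nothing shared; deviations of same-numbered samples correlated at r = 0.124 over 37516 probes. With the replicate number as a block the count of probes past the threshold was 0, the median of the enzymes was −0.01, and the adjusted p of the enzymes lay between 0.465 and 0.939, so no call changed.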
